A study of Mus musculus with 30 samples.

Results

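Defensins and epithelial antimicrobial proteins were followed in mouse back skin through an episode of skin inflammation. The set was chosen by name and holds 10 genes, namely the beta-defensins Defb1, Defb3, Defb4, Defb6 and Defb14, the antiprotease Slpi, the siderophore-binding lipocalin Lcn2, the calprotectin subunits S100a8 and S100a9, and the C-type lectin Reg3g. Every probe set annotated with one of these symbols was taken, which gave 10 probe sets for 9 of the 10 genes, of 22121 distinct gene symbols on the array. Defb1 had 2 probe sets, Defb14 matched none, and each of the other 8 genes had 1. All 10 probe sets passed the filter on dim signal, Reg3g narrowly, with a mean log2 intensity of 3.78 against a lowest mean kept of 3.72.

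Wild type (WT) mice were compared with D6 null deficient mice, which lack the decoy receptor D6, a scavenger of inflammatory CC chemokines. All mice were female, of mixed 129–C57BL/6 strain and 8 to 12 weeks old, and the whole shaved back skin was taken, so that epidermis, hair follicles, dermis, fat and muscle were measured together. The phorbol ester TPA, which inflames skin, was applied 3 times at 50 µM, 24 hours apart, and skin was collected 1, 2, 4 or 6 days afterwards, whereas day 0 skin of each genotype is called untreated in one label and acetone treated in another. Genotype and time gave 10 groups of 3 mice, with 1 Affymetrix array per mouse.

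Beta-defensins are small cationic peptides that epithelia release to damage microbial membranes and that can also attract immune cells through the chemokine receptor Ccr6. S100a8 and S100a9 form calprotectin, which withholds zinc and manganese from microbes and is made both by activated keratinocytes and by neutrophils, and Lcn2 withholds iron by binding bacterial siderophores. Slpi restrains neutrophil elastase, and Reg3g kills mainly Gram-positive bacteria. In skin, interleukin 1, interleukin 17 and interleukin 22 family cytokines are known inducers of these genes.

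Values are log2 of the intensities and are compared between arrays for the same probe set only, since brightness of different probe sets is not on a common scale. The arrays were alike in overall level, with medians from 5.64 to 5.80 and correlations between pairs of arrays from 0.9323 to 0.9943. The D6 gene (Ccbp2) was lower in D6-deficient skin on its probe set with the clearest separation, at 3.30 to 3.86 against 4.15 to 5.76 in WT skin (adjusted p = 1.3e-08). On another of its probe sets the genotypes did not separate, at 6.59 to 8.09 in D6-deficient and 6.69 to 8.54 in WT skin. Skin markers such as Krt14 and Lor were bright on every day 0 array, and hair shaft keratins were dim, for example Krt33a at 3.55 to 3.96. In whole skin a change in the number of cells that express a gene and a change in the RNA per cell cannot be told apart.

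The calprotectin pair rose to the upper end of the intensity scale. S100a9 read 10.93, 8.03 and 8.43 on the WT day 0 arrays, 13.46, 12.62 and 13.42 on day 1, 14.64, 14.81 and 14.36 on day 2, 14.70, 14.53 and 14.80 on day 4, and 11.83, 11.91 and 11.89 on day 6. D6-deficient skin read 10.71, 9.95 and 12.85 on day 0, 13.35, 13.55 and 13.01 on day 1, 14.83, 14.64 and 14.65 on day 2, 14.75, 14.79 and 14.75 on day 4, and 12.22, 13.51 and 11.58 on day 6. The day 2 and day 4 arrays of both genotypes lay within a narrow band above all other arrays, whereas the day 0 arrays were scattered, with WT replicate 1 well above the other WT controls and D6-deficient replicate 3 above all other controls. Few probe sets were brighter than S100a9 at the peak, from 0 to 11 of 45037 on the day 2 arrays and from 0 to 2 on the day 4 arrays, so a further rise there may not have been measurable.

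S100a9 rose in WT skin by 4.03, 5.47, 5.54 and 2.75 on the log2 scale at days 1, 2, 4 and 6 (SE 0.58), the change at day 4 being 46.7-fold (adjusted p = 8.1e-08). In D6-deficient skin it rose by 2.14, 3.54 and 3.59 at days 1, 2 and 4, the last being 12.1-fold (adjusted p = 2.4e-05). At day 6 the D6-deficient difference from day 0 was 1.27 (adjusted p = 0.1), and the arrays of the 2 days overlapped. WT and D6-deficient changes share no arrays, but within a genotype every change is measured against the same 3 day 0 arrays.

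S100a8, the partner subunit, followed S100a9 closely. It read 11.15, 7.74 and 8.23 on the WT day 0 arrays, 13.44, 12.49 and 13.34 on day 1, 14.25, 14.40 and 14.02 on day 2, 14.34, 14.19 and 14.48 on day 4, and 11.79, 12.20 and 12.13 on day 6. The D6-deficient arrays read 11.07, 10.42 and 12.85 on day 0, 13.24, 13.36 and 12.85 on day 1, 14.50, 14.20 and 14.26 on day 2, 14.44, 14.41 and 14.44 on day 4, and 12.30, 13.36 and 11.80 on day 6. Its scatter on day 0 came from the same arrays as that of S100a9, and over the 30 arrays the pair correlated at r = 0.99, a description in which all points share the day and the genotype. S100a8 rose 16.6-fold at day 1 and 39.4-fold at day 4 in WT skin (adjusted p = 2.2e-05 and 1.6e-07), and 3.25-fold and 7.88-fold in D6-deficient skin (adjusted p = 0.025 and 2.2e-04). Its probe set is of a type that can also detect related transcripts.

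**Figure D1:**
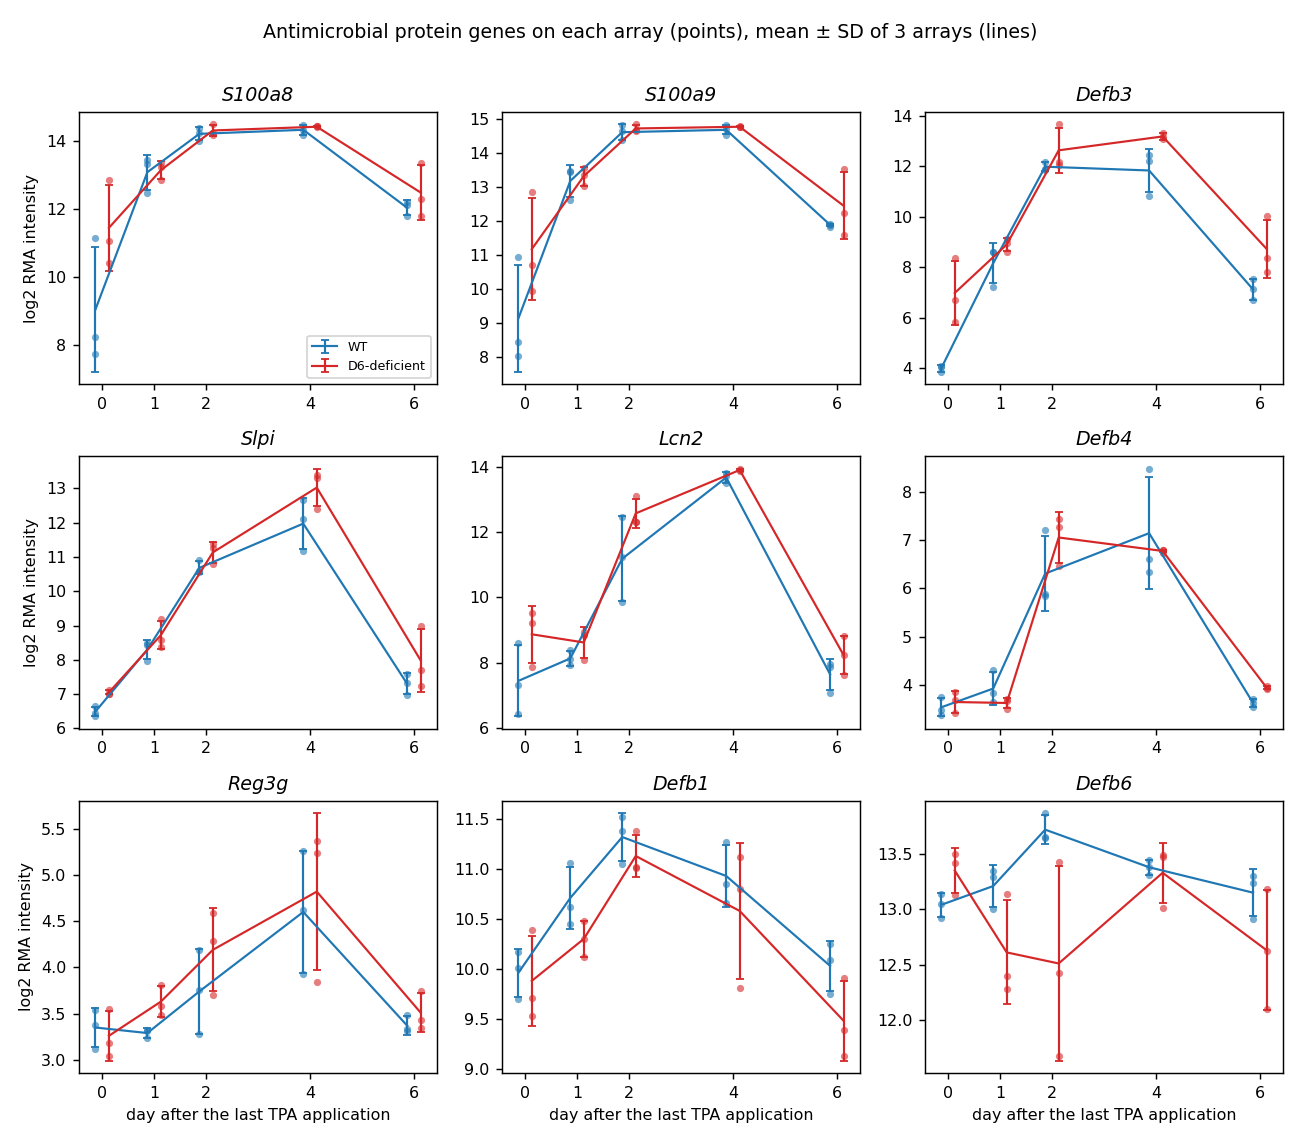
Log2 RMA intensity (vertical axes, a separate scale for each gene) against day after the last TPA application (horizontal axes), 1 panel per gene, with a point for each array and lines and bars for the mean ± SD of the 3 arrays of a group, WT in blue and D6-deficient in red. S100a8 and S100a9 are level between days 2 and 4, Defb3 spans 3.84 to 13.67, and Defb6 stays between 11.67 and 13.87.

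Defb3, an inducible beta-defensin of mouse epithelia, had the widest range of the set. It read 4.05, 4.07 and 3.84 on the WT day 0 arrays, 8.62, 7.23 and 8.62 on day 1, 11.87, 11.91 and 12.19 on day 2, 12.21, 10.84 and 12.46 on day 4, and 6.71, 7.54 and 7.12 on day 6. The D6-deficient arrays read 6.72, 5.84 and 8.36 on day 0, 9.12, 8.98 and 8.61 on day 1, 13.67, 12.07 and 12.17 on day 2, 13.16, 13.08 and 13.33 on day 4, and 8.35, 10.02 and 7.81 on day 6. Every WT array after TPA was above every WT control, and every D6-deficient array of days 1, 2 and 4 was above every D6-deficient control. At day 6 the D6-deficient arrays overlapped their controls.

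Defb3 rose in WT skin by 4.17, 8.00, 7.85 and 3.14 on the log2 scale at days 1, 2, 4 and 6 (SE 0.55), which at day 2 is 256-fold (adjusted p = 3.8e-10). In D6-deficient skin it rose by 1.93, 5.66, 6.22 and 1.75, which at day 4 is 74.3-fold (adjusted p = 4.0e-09). The WT day 0 mean of Defb3, 3.99, was near 3.72, the lowest mean kept by the dim filter. The WT changes may therefore be understated, as may the difference between the genotypes on day 0. The D6-deficient change at day 6 had an adjusted p of 0.018, which became 0.059, 0.14 and 0.16 when D6-deficient day 0 replicate 1, day 0 replicate 2 or day 6 replicate 2 was left out.

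Defb6, a beta-defensin of epithelia and muscle, gave a high signal that hardly moved. It read 13.14, 12.92 and 13.05 on the WT day 0 arrays, 13.29, 13.35 and 13.00 on day 1, 13.64, 13.65 and 13.87 on day 2, 13.31, 13.45 and 13.38 on day 4, and 13.30, 12.91 and 13.24 on day 6. D6-deficient skin gave 13.42, 13.13 and 13.50 on day 0, 12.40, 12.28 and 13.14 on day 1, 13.43, 11.67 and 12.42 on day 2, 13.01, 13.47 and 13.49 on day 4, and 12.62, 12.10 and 13.18 on day 6. The lower and more scattered values were those of D6-deficient skin at days 1, 2 and 6, and the lowest was replicate 2 of day 2. The WT differences from day 0 were between 0.12 and 0.68, with adjusted p from 0.091 to 0.83. In D6-deficient skin Defb6 fell by 0.84 at day 2 (SE 0.30, adjusted p = 0.026), although the arrays of the 2 days overlapped. This change passed in 9 of 18 alternative settings and was -0.42 (adjusted p = 0.27) without D6-deficient day 2 replicate 2.

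Defb3 and Defb6 lie in a row of beta-defensin genes on chromosome 8, with Defb5 between them in the RefSeq order and Defb4 and Defb14 beyond Defb6. Their upstream sequences are shown because the pair shares most of this sequence yet differed in response, beside those of S100a8 and S100a9, which responded together. Each is the 250 bases before the transcript start in RefSeq (GRCm38.p6), in the direction of the gene, and capitals mark the letters TTNNGCAA on either strand, the core recognized by C/EBP factors.
Defb3, chr8:19293111-19293360, plus strand: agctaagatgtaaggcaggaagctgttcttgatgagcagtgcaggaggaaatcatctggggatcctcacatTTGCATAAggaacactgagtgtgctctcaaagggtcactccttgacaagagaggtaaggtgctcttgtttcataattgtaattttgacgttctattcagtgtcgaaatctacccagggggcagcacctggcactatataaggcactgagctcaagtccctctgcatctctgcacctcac
Defb6, chr8:19225228-19225477, plus strand: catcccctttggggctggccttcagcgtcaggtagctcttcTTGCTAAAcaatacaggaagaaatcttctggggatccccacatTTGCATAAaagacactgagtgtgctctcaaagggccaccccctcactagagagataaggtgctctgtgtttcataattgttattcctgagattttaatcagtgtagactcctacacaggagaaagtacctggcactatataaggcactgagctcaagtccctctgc
S100a8, chr3:90668821-90669070, plus strand: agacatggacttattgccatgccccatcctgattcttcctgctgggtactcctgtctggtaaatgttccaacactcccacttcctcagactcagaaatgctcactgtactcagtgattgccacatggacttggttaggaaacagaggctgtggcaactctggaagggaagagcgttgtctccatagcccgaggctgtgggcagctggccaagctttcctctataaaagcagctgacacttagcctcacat
S100a9, chr3:90695722-90695971, minus strand: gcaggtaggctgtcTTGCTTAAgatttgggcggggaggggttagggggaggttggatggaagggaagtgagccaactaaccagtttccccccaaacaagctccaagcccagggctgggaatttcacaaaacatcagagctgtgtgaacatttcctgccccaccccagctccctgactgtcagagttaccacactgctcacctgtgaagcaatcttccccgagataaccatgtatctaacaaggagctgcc

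Aligned end to end, the Defb3 and Defb6 windows were 74.0% identical (196 of 265 aligned positions), whereas the other pairs among the 7 members with a window in the RefSeq table had 44.8% to 53.1%, S100a8 with S100a9 48.1%. Both defensin windows hold the octamer ATTTGCAT, at -181 in Defb3 and -168 in Defb6 from the transcript start, overlapping a C/EBP match, and 1.6% of 32851 promoters hold this octamer on either strand. The C/EBP letters stood in 5 of the 7 windows (Defb3, Defb6, Lcn2, S100a9 and Slpi) and in 9.6% of all promoters. The AP-1 letters TGANTCA, the TPA response element, and the STAT letters TTCNNNGAA stood in 0 of the 7 windows, and in 6.7% and 7.0% of all promoters. The NF-kappaB motif was found in Defb6 and Reg3g and in 7.3% of all promoters. A match is a run of letters and not a binding site, and Defb3 and Defb6, one strongly changed and the other hardly, hold the same C/EBP match and octamer.

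Defb4, another inducible beta-defensin, was near the lower end of the scale in control skin. It read 3.75, 3.47 and 3.37 on the WT day 0 arrays, 4.30, 3.83 and 3.63 on day 1, 5.84, 7.21 and 5.88 on day 2, 6.61, 6.35 and 8.49 on day 4, and 3.61, 3.54 and 3.70 on day 6. The corresponding D6-deficient values were 3.41, 3.68 and 3.84 on day 0, 3.49, 3.70 and 3.66 on day 1, 6.47, 7.28 and 7.44 on day 2, 6.79, 6.74 and 6.81 on day 4, and 3.93, 3.91 and 3.97 on day 6. All day 2 and day 4 arrays were above all others, with no overlap. Defb4 rose 6.86-fold at day 2 and 12.3-fold at day 4 in WT skin (adjusted p = 6.9e-06 and 6.1e-08), and 10.7-fold and 8.79-fold in D6-deficient skin (adjusted p = 1.6e-07 and 3.6e-07). The day 0 means, 3.53 and 3.64, were below 3.72, the lowest mean kept by the dim filter, so these folds may understate the change. At day 1 its log2 differences were 0.39 in WT and -0.03 in D6-deficient skin (adjusted p = 0.5 and 0.97), while Defb3 had already risen.

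Defb1, a beta-defensin that epithelia make constitutively, had a moderate signal at all times. Its brighter probe set read 9.70, 10.01 and 10.17 on the WT day 0 arrays and 11.52, 11.38 and 11.05 on day 2, with 10.45 to 11.06 on day 1, 10.66 to 11.27 on day 4 and 9.75 to 10.25 on day 6. The D6-deficient values were 9.71, 9.53 and 10.39 on day 0 and 11.02, 11.01 and 11.38 on day 2, with 10.12 to 10.48, 9.81 to 11.12 and 9.13 to 9.91 on days 1, 4 and 6. In both genotypes all day 2 arrays were above all day 0 arrays. Defb1 rose 2.56-fold at day 2 in WT skin (adjusted p = 6.4e-04) and 2.39-fold in D6-deficient skin (adjusted p = 7.1e-04). At day 4 the log2 changes were 0.96 and 0.70 (adjusted p = 0.0066 and 0.043), the D6-deficient one being past the threshold in 11 of 19 alternative settings, and the small WT change of day 1, 0.75 (adjusted p = 0.047), was past the threshold in 9 of 19 alternative settings. The second Defb1 probe set correlated with the first at r = 0.96 over 30 arrays and gave 1.56 and 1.45 at day 2. At day 4 it gave 1.08 in WT skin (adjusted p = 0.0068) and 0.74 in D6-deficient skin (adjusted p = 0.055).

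Slpi, which protects tissue from neutrophil elastase, climbed until day 4. It read 6.45, 6.36 and 6.64 on the WT day 0 arrays, 8.50, 7.97 and 8.43 on day 1, 10.90, 10.58 and 10.57 on day 2, 12.09, 11.18 and 12.65 on day 4, and 6.98, 7.60 and 7.33 on day 6. In D6-deficient skin it read 7.12, 7.01 and 7.01 on day 0, 9.18, 8.59 and 8.38 on day 1, 10.78, 11.25 and 11.37 on day 2, 12.39, 13.38 and 13.30 on day 4, and 7.24, 9.0 and 7.69 on day 6. In each genotype days 0, 1, 2 and 4 formed 4 bands without overlap. Slpi rose 18.4-fold at day 2 and 44.9-fold at day 4 in WT skin (adjusted p = 7.6e-09 and 5.2e-11), and 17.0-fold and 62.9-fold in D6-deficient skin (adjusted p = 6.4e-09 and 9.2e-12). At day 6 it was 0.82 above day 0 in WT skin (adjusted p = 0.1) and had risen by 0.93 in D6-deficient skin (adjusted p = 0.047), a call that held in 5 of 17 alternative settings.

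Lcn2, also known as a neutrophil granule protein and an acute phase protein, came later than Defb3 and the calprotectin genes. It read 8.59, 6.42 and 7.31 on the WT day 0 arrays, 8.38, 7.92 and 8.10 on day 1, 11.24, 12.48 and 9.85 on day 2, 13.82, 13.50 and 13.72 on day 4, and 7.87, 7.96 and 7.08 on day 6. Without D6 the values were 9.23, 7.87 and 9.51 on day 0, 8.08, 8.84 and 8.93 on day 1, 13.10, 12.33 and 12.31 on day 2, 13.95, 13.91 and 13.87 on day 4, and 7.63, 8.81 and 8.24 on day 6. The arrays of days 0, 1 and 6 overlapped, those of days 2 and 4 stood above them, and WT day 2 was the most scattered group. Lcn2 rose 13.4-fold at day 2 and 75.7-fold at day 4 in WT skin (adjusted p = 9.8e-06 and 2.3e-09), and 13.1-fold and 33.0-fold in D6-deficient skin (adjusted p = 4.4e-06 and 3.8e-08). At day 1 the differences were 0.69 and -0.25 on the log2 scale (SE 0.52, adjusted p = 0.37 and 0.75).

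Reg3g, better known from gut epithelium, gave a signal near the lower end of the scale. It read 3.54, 3.38 and 3.12 on the WT day 0 arrays and 4.62, 3.93 and 5.26 on day 4, and between 3.24 and 4.19 on the other WT days. Without D6 it read 3.04, 3.18 and 3.55 on day 0, 4.59, 3.70 and 4.29 on day 2 and 3.84, 5.37 and 5.24 on day 4, and between 3.35 and 3.81 on days 1 and 6. Day 4 arrays were above day 0 arrays in both genotypes. Reg3g rose 2.38-fold at day 4 in WT skin (adjusted p = 0.0029) and 2.95-fold in D6-deficient skin (adjusted p = 3.4e-04), the latter 2.05 on the log2 scale without D6-deficient day 4 replicate 1. Its day 0 means, 3.35 and 3.26, were under the lowest mean kept by the dim filter, 3.72, so these folds may understate the change. The D6-deficient change at day 2, 0.94 on the log2 scale (adjusted p = 0.022), was past the threshold in 11 of 17 alternative settings.

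**Figure D2:**
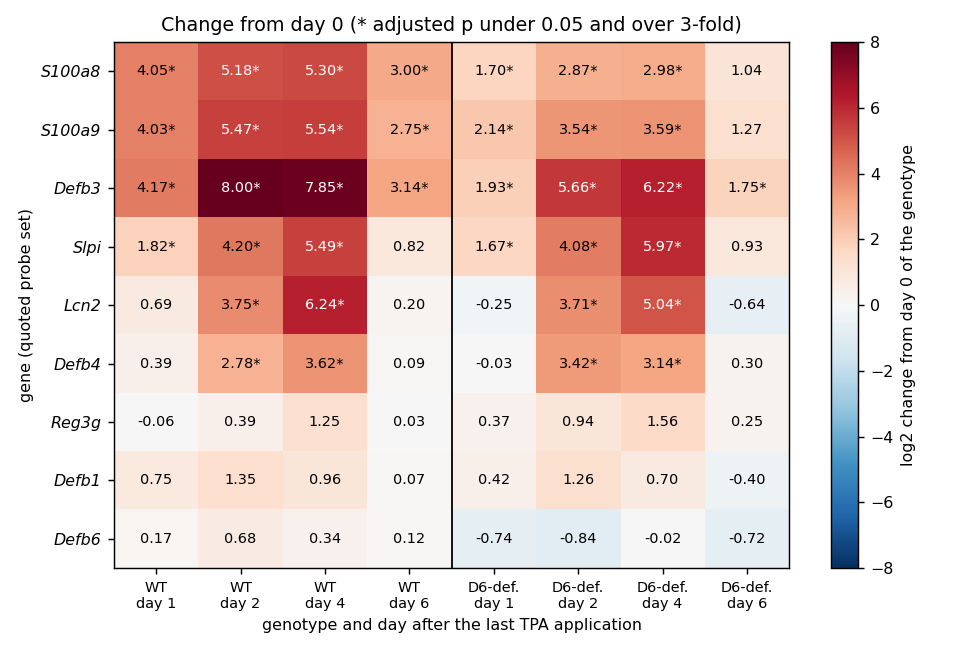
Heat map of the log2 change from day 0 of the same genotype, with genes in rows and genotype and day in columns, red for higher and blue for lower, and an asterisk where the adjusted p was under 0.05 and the change over 3-fold. S100a8, S100a9, Defb3 and Slpi carry an asterisk from day 1, whereas Lcn2 and Defb4 do so at days 2 and 4.

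Counted with a threshold of more than 3-fold and an adjusted p under 0.05, the members fell into an early and a later group. In WT skin 4 of the 10 probe sets were called at day 1, all higher (Defb3, S100a8, S100a9 and Slpi), where 1.77% of all tested probe sets were called in either direction. At day 2 there were 6, with Defb4 and Lcn2 added (1.90% of all), and at day 4 the same 6 (3.24% of all). At day 6 Defb3, S100a8 and S100a9 remained called, 3 of 10 (1.34% of all). The median log2 change of the members was 0.81, 3.26, 4.46 and 0.16 at the 4 times, against -0.01 to 0.01 over all tested probe sets.

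In D6-deficient skin the same 4 genes were called at day 1 (2.49% of all tested probe sets) and the same 6 at day 2 (3.27%) and at day 4 (4.01%), all higher. At day 6 only Defb3 was called, 1 of 10 (2.13%). The median change of the members was 0.60, 3.14, 3.06 and 0.27, against -0.01 to 0.02 over all tested probe sets. The day 1 count rested on single arrays, since leaving out D6-deficient day 0 replicate 2 gave 1 and leaving out D6-deficient day 1 replicate 1 gave 2. The day 6 count was 0 without D6-deficient day 0 replicate 1, day 0 replicate 2 or day 6 replicate 2, 2 without day 6 replicate 3, and 3 without day 0 replicate 3.

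Between day 4 and day 6 the induced members fell steeply. The same 6 genes, Defb3, Defb4, Lcn2, S100a8, S100a9 and Slpi, were called lower at day 6 in WT skin (2.03% of all tested probe sets were called in either direction) and in D6-deficient skin (3.13%). Lcn2 changed by -6.04 on the log2 scale in WT and by -5.69 in D6-deficient skin (adjusted p = 9.9e-09 and 1.2e-08). Slpi changed by -4.67 and -5.04, with changes of -4.71 and -4.46 for Defb3 and -3.54 and -2.84 for Defb4. The calprotectin genes changed by -2.80 and -2.33 (S100a9) and by -2.30 and -1.94 (S100a8), and their day 6 arrays were still above the lower WT controls. Reg3g changed by -1.23 and -1.31 (adjusted p = 0.0065 and 0.0028), and Defb1 by -0.90 and -1.10 (adjusted p = 0.019 and 0.0032), both measured as less than 3-fold. Defb6 differed by -0.23 and -0.69 (adjusted p = 0.64 and 0.077).

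Ordered by mean over the 10 groups, 6 of the 9 measured genes were highest in D6-deficient day 4 skin (Defb3, Slpi, Lcn2, S100a8, S100a9 and Reg3g) and 6 were lowest in WT day 0 skin (Defb3, Defb4, Slpi, Lcn2, S100a8 and S100a9). Neighbours in the order were mostly not separable. Of 9 neighbouring pairs of groups, the arrays overlapped in 9 for Defb1 and Reg3g, 8 for Defb4, Defb6, S100a8 and S100a9, 7 for Defb3 and Slpi, and 6 for Lcn2. For Defb3 the 2 breaks lay between WT day 0 and all other groups, and between day 1 and the day 2 and day 4 groups. For S100a9 the single break lay between day 1 and the day 2 and day 4 groups.

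The genotypes were next compared on the same day. In control skin, 2 of 10 member probe sets were called, both higher in D6-deficient skin, where 0.122% of all tested probe sets were called in either direction. Defb3 was 2.99 higher on the log2 scale (SE 0.55, adjusted p = 0.0064), with 5.84, 6.72 and 8.36 in D6-deficient against 3.84, 4.05 and 4.07 in WT controls and no overlap. S100a8 was 2.41 higher (SE 0.58, adjusted p = 0.035), but WT replicate 1 at 11.15 lay above 2 of the 3 D6-deficient arrays. S100a9 was 2.04 higher (adjusted p = 0.076) and Lcn2 1.43 higher (adjusted p = 0.18). Slpi was 0.56 higher without overlap (adjusted p = 0.51), and the differences of Defb1, Defb4, Defb6 and Reg3g lay between -0.28 and 0.31.

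Leaving out single arrays, or fitting the day 0 arrays alone, changed these calls. The Defb3 difference was 2.30 with an adjusted p of 0.055 without D6-deficient replicate 3, and 2.99 with 0.054 when only the day 0 arrays were fitted. The S100a8 difference lost its call without D6-deficient replicate 3 (1.71, adjusted p = 0.2), without D6-deficient replicate 1 (adjusted p = 0.095), without WT replicate 2 (0.19) or without WT replicate 3 (0.16), and was 3.47 (adjusted p = 3.0e-04) without WT replicate 1. S100a9 passed without WT replicate 1 (2.94, adjusted p = 0.0059) and without D6-deficient replicate 2 (2.65, adjusted p = 0.026). The 30 arrays also fell into sets of 17 and 13 by their hybridization controls. Within these sets the Defb3 difference on day 0 was 2.66 and 3.26, near the pooled value, and that of S100a8 was 1.63 and 3.41, each from 2 arrays against 1, too few for a test to say much.

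Markers of activated keratinocytes (Krt6a, Krt6b, Krt16, Krt17, Sprr1b and Sprr2d, all 6 measured) varied across the control arrays as well. Their summed level, in log2, was 11.19, 10.57 and 10.50 on the WT and 11.96, 11.60 and 13.18 on the D6-deficient day 0 arrays, highest on D6-deficient replicate 3 and, among WT arrays, on replicate 1, the arrays on which S100a8 and S100a9 were also highest. Defb3 was highest on the same D6-deficient array but was flat among the WT controls, at 3.84 to 4.07. These readings were near 3.72, the lowest mean kept by the dim filter, so differences among them may not have been measurable. Krt6b, a keratin of injured and proliferating epidermis, read 8.65, 4.15 and 6.05 in WT and 9.42, 8.21 and 11.75 in D6-deficient controls. The summed level of the 11 measured neutrophil markers was 8.90 to 9.22 in WT and 9.14 to 9.30 in D6-deficient controls, and without Stfa2l1 it was 8.75 to 9.02 and 8.71 to 8.93. Neutrophil Ltf was at 3.81 to 3.95 and 3.79 to 3.99, and Ly6g and Retnlg had no probe set by these symbols. The 5 basal keratinocyte markers summed to 14.18 to 14.22 in WT and 14.72 to 14.92 in D6-deficient controls, and the 7 measured monocyte and macrophage markers to 14.81 to 14.91 and 14.28 to 14.66. The part of these cell types in the day 0 difference was not tested.

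**Figure D3:**
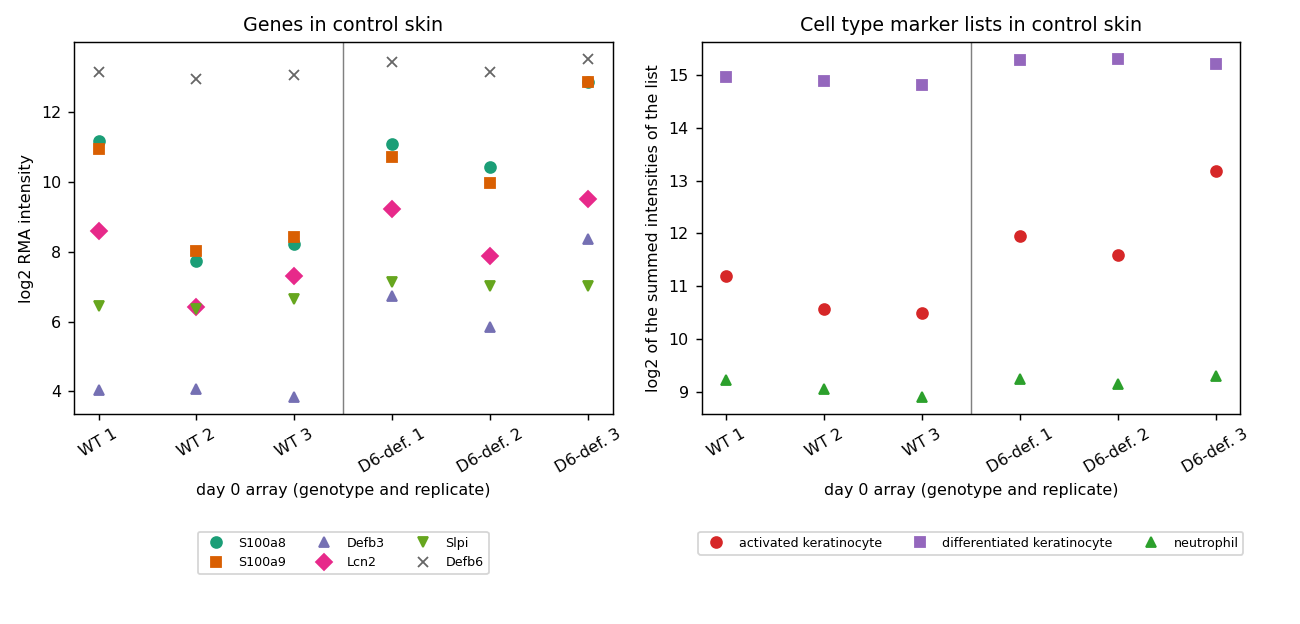
Left, log2 RMA intensity of 6 of the antimicrobial genes on each day 0 array, and right, log2 of the summed intensities of the activated keratinocyte, differentiated keratinocyte and neutrophil marker lists on the same arrays, by genotype and replicate. D6-deficient replicate 3 is highest for Defb3 (8.36), S100a8 (12.85) and the activated keratinocyte sum (13.18), while the neutrophil sum stays between 8.90 and 9.30.

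After TPA the genotypes were compared again on each day. No member probe set was called at day 1 (0 of 10, with 0.0139% of all tested probe sets called), day 2 (0 of 10, 0.572%), day 4 (0 of 10, 0.0777%) or day 6 (0 of 10, 0.0167%) by limma, and 0, 2, 2 and 1 of the 10 had an unadjusted p under 0.05, as did 8.01%, 15.5%, 10.1% and 8.37% of all. S100a9 differed by 0.14, 0.10, 0.09 and 0.56 on the 4 days, with 95% intervals from -1.06 to 1.34 at day 1 and from -1.11 to 1.29 at day 4. At days 2 and 4 it was near the top of the scale in both genotypes, so a difference there may not have been measurable. Defb3 was higher in D6-deficient skin by 0.74, 0.65, 1.35 and 1.60 (adjusted p = 0.75, 0.65, 0.37 and 0.35), and without overlap at days 4 and 6. Slpi was 1.05 higher at day 4 (95% interval 0.32 to 1.78, adjusted p = 0.23) and Lcn2 1.39 higher at day 2 (0.32 to 2.46, adjusted p = 0.15), Lcn2 being called without WT day 2 replicate 2. Defb4 differed by -0.31, 0.75, -0.37 and 0.32, with adjusted p of 0.34 or more.

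Defb6 was the exception, with lower levels in D6-deficient skin at day 2. It read 13.64, 13.65 and 13.87 in WT and 13.43, 11.67 and 12.42 in D6-deficient skin, without overlap, a log2 difference of -1.22 (SE 0.30, adjusted p = 0.015) that was under 3-fold. Without D6-deficient day 2 replicate 2 it was -0.80 (adjusted p = 0.17), and without D6-deficient day 2 replicate 1 it passed the fold threshold. Within the sets of arrays by hybridization controls it was -1.34 and -1.09, each from 2 arrays against 1, too few for a test to say much. At day 4 the Defb6 difference was -0.05 (95% interval -0.66 to 0.56).

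The change from day 0 was also compared between the genotypes directly. No member was called at day 1 (0 of 10, with 0.00278% of all tested probe sets called), day 2 (0 of 10, 1.11%), day 4 (0 of 10, 0.153%) or day 6 (0 of 10, 0.00278%) by limma, and 4, 4, 3 and 1 had an unadjusted p under 0.05, as did 9.70%, 16.9%, 11% and 8.01% of all. The D6-deficient minus the WT change of Defb3 was -2.25, -2.34, -1.64 and -1.39 on the log2 scale (adjusted p = 0.33, 0.085, 0.45 and 0.71). For S100a8 it was -2.35, -2.31, -2.32 and -1.96 (adjusted p = 0.33, 0.11, 0.23 and 0.55). These differences share the day 0 arrays described above, where S100a8 differed by 2.41 in the other direction. Calls appeared when 1 array was left out, 2 of 10 at day 2 without WT day 0 replicate 1 (S100a8 and S100a9), D6-deficient day 0 replicate 2 or D6-deficient day 2 replicate 1 (Defb3 and Defb6 in both cases). The Slpi changes differed by -0.15, -0.11, 0.49 and 0.11, with a 95% interval of -1.14 to 0.92 at day 2. Defb6 again differed at day 2, by -1.53 (SE 0.42, adjusted p = 0.03), and without D6-deficient day 2 replicate 2 by -1.11 (adjusted p = 0.11).

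Averaged over the 5 days, 0 of 10 members passed the 3-fold threshold, with 0.0833% of all tested probe sets called by limma, while 8 of 10 had an unadjusted p under 0.05, as did 18.7% of all tested probe sets. Defb3 was 1.47 higher in D6-deficient skin (SE 0.25, adjusted p = 5.2e-04), Slpi 0.63 higher (SE 0.16, adjusted p = 0.017) and Lcn2 0.82 higher (SE 0.23, adjusted p = 0.035). Defb3 held in 37 of 40 alternative settings, Slpi in 37 of 40 and Lcn2 in 24 of 40. Defb1 and Defb6 lay on the other side, at -0.32 (adjusted p = 0.14) and -0.42 (adjusted p = 0.067).

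**Figure D4:**
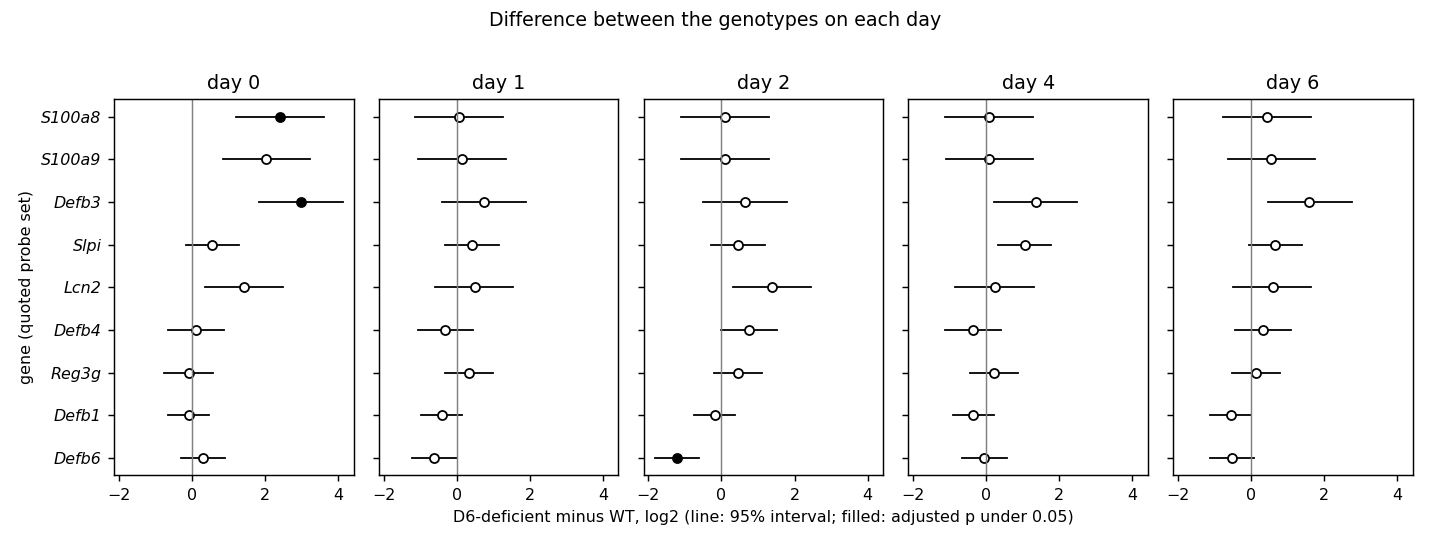
Log2 difference of D6-deficient minus WT skin (horizontal axes) with its 95% interval for each gene (rows), 1 panel for each of days 0, 1, 2, 4 and 6, with filled points where the adjusted p was under 0.05. The filled points are S100a8 and Defb3 on day 0, the latter with an interval from 1.85 to 4.13, and Defb6 on day 2, with an interval from -1.83 to -0.61.

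The other antimicrobial effectors of skin, a list of 28 genes of which 23 were measured and 18 tested, gave 4, 5, 8 and 2 genes called higher in WT skin at days 1, 2, 4 and 6, and 5, 8, 9 and 4 in D6-deficient skin. Of all tested probe sets, 0.930%, 1.2%, 1.76% and 0.799% were called higher in WT and 1.06%, 1.70%, 1.97% and 0.888% in D6-deficient skin on these days. The median log2 change of the 18 was 0.33, 0.57, 1.48 and 0.25 in WT and 0.87, 1.13, 1.02 and 0.63 in D6-deficient skin. Pglyrp1, a peptidoglycan recognition protein of granulocytes, rose at day 4 by 5.05 in WT and 5.18 in D6-deficient skin. Wfdc12, a whey acidic protein related to Slpi, rose early, by 3.27 and 3.02 at day 1. Chi3l3, a chitinase-like gene, rose by 5.68 and 5.61 at day 4, and Ptx3, a soluble pattern recognition protein, by 3.14 and 4.82. Expi (at day 4, by 2.70 with D6 and 3.48 without) and Wfdc5 (2.31 in WT skin at day 2), both of the whey acidic protein family, were also called higher. Chi3l1, a relative of Chi3l3, rose at day 2 by 5.93 in WT and 3.24 in D6-deficient skin. Hamp2, a hepcidin gene, was the only gene of the list called lower than day 0 at any time. Its day 1 changes were -1.61 (WT) and -1.84 (D6-deficient), on a probe set that may also detect related transcripts.

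Camp, Ngp and Ltf, neutrophil granule genes of this list, separated the genotypes at day 2. Camp, the cathelicidin, ranged from 5.71 to 6.64 in WT and from 7.86 to 10.76 in D6-deficient skin, Ngp from 4.84 to 6.91 and from 8.75 to 11.87, and lactoferrin (Ltf) from 3.89 to 4.84 and from 6.23 to 9.87. For these 3 genes the genotypes did not overlap, and the log2 differences were 3.28, 4.82 and 3.82 (adjusted p = 0.0012, 4.9e-04 and 0.0017). They were the 3 genes called among the 18, where 0.572% of all tested probe sets were called in either direction. Pglyrp1 of granulocytes overlapped, at 9.30 to 10.70 in WT and 10.13 to 10.48 in D6-deficient skin. On the same arrays S100a8, S100a9 and Lcn2, which neutrophils also carry, differed by 0.10, 0.10 and 1.39 and were not called. S100a8 and S100a9 were then near the top of the scale, with 6 to 66 and 0 to 11 probe sets brighter, so their small differences cannot be set against those of the granule genes. At day 1 Camp, Ngp and Ltf did not overlap between the genotypes either, but none was called, where 0.0139% of all tested probe sets were. The share of all probe sets without overlap was not counted for days 1 and 2. Pglyrp1 at day 1 was lower in D6-deficient skin, at 7.85 to 8.16 against 8.36 to 8.74 in WT, and not called. Camp was then 6.00 to 6.10 in WT and 6.96 to 9.47 in D6-deficient skin. Ngp was 5.16 to 6.42 and 7.23 to 9.69, and Ltf 4.03 to 4.51 and 4.94 to 7.18.

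The neutrophil marker list shares Camp, Ngp and Ltf with the effector list. Without Stfa2l1, which keratinocytes also express, its summed level was 9.50 to 10.48 in WT and 11.57 to 13.25 in D6-deficient skin at day 2, and 11.83 to 12.82 and 12.80 to 13.06 at day 4. Without the 3 granule genes as well, it was 9.24 to 10.20 and 11.17 to 11.73 at day 2. Of the 11 measured neutrophil markers, 8 were called higher in WT skin at day 4. Mpo went the other way in WT skin, with means of 4.75 and 5.02 at days 2 and 4 against 6.24 on day 0. The means of Elane hardly differed, at 4.60 and 4.45 against 4.47. At day 1 in WT skin, when Defb3, S100a8 and S100a9 had risen, the sum without Stfa2l1 was 9.01 to 9.42 against 8.75 to 9.02 on day 0, while the activated keratinocyte sum was 14.51 to 15.30 against 10.50 to 11.19. In D6-deficient mice, where the same 4 members were called at day 1, this neutrophil sum was 9.66 to 11.14 against 8.71 to 8.93 on day 0, and the activated keratinocyte sum was 15.33 to 16.04 against 11.60 to 13.18. At day 6 the neutrophil sum without Stfa2l1 was 9.0 to 9.34 in WT skin and, without D6, 9.15 to 10.18, above its day 0 range. Without the 3 granule genes as well, it was 8.39 to 8.88 in WT and 8.59 to 9.05 in D6-deficient skin, both overlapping day 0. The activated keratinocyte sum was 12.76 to 14.86 in WT and 13.98 to 15.49 without D6. The sum of the differentiated keratinocyte markers was lower at day 4, when Slpi and Lcn2 peaked, at 11.63 to 13.47 in WT and 9.91 to 11.77 in D6-deficient skin against 14.82 to 14.96 and 15.21 to 15.30 on day 0. Not every marker of this list fell in WT skin, where the mean of Ivl was 9.99 at day 4 and 9.96 on day 0. Hair shaft markers did not follow the members, being 9.08 or higher on the day 1 and day 6 arrays and 7.48 or lower on all others. Adipocyte and skeletal muscle sums ranged over all arrays from 15.12 to 15.95 and from 14.13 to 16.09, the muscle sum being highest on day 0. At day 2, when Defb6 was lower in D6-deficient skin, the muscle sum was 14.94 to 15.11 in WT and 14.55 to 14.68 in D6-deficient skin. At day 1 it was 14.88 to 15.37 and 14.44 to 14.69, and at day 6 14.99 to 15.35 and 14.13 to 14.80. At day 4 the genotypes overlapped. The part of these cell types in the members' changes was not tested.

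**Figure D5:**
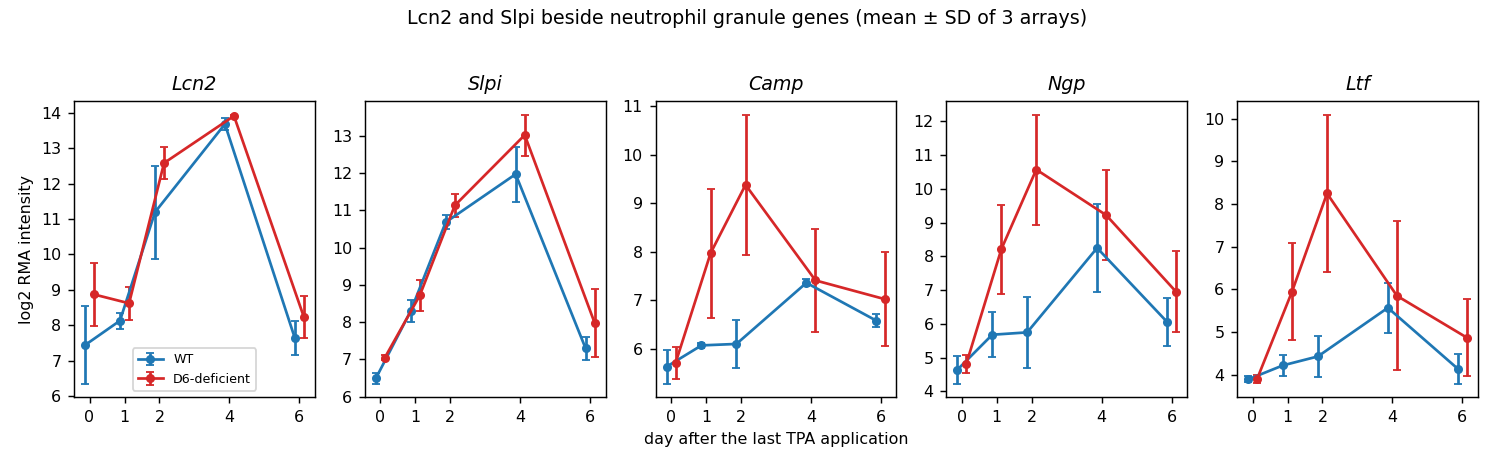
Log2 RMA intensity (vertical axes, a separate scale for each gene) of Lcn2 and Slpi and of the neutrophil granule genes Camp, Ngp and Ltf against day after the last TPA application, as mean ± SD of 3 arrays, WT in blue and D6-deficient in red. At day 2 Camp, Ngp and Ltf separate the genotypes, with differences of 3.28, 4.82 and 3.82, while Slpi differs by 0.45.

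Cytokines known to induce these genes were measured on the same arrays, from a list of 19 of which 13 were measured and 12 tested. In WT skin 5, 7, 7 and 3 were called higher at days 1, 2, 4 and 6, and in D6-deficient skin 3, 6, 7 and 0, against the same shares of all probe sets as for the effectors. The genes called in at least 1 of these comparisons were Il1a, Il1b, Il1f6, Il1f8, Il1f9, Il6, Il17a, Il22, Il24 and Osm. Il1f6, an interleukin 36, rose early in WT skin, by 4.18 at day 1 and 5.32 at day 2, and was 1.92 higher in D6-deficient than in WT controls (adjusted p = 0.024). Il6 and Il24 rose late, by 6.32 and 3.86 in WT and 6.58 and 4.25 in D6-deficient skin at day 4. Il22 and Il17a exceeded their WT levels in D6-deficient skin at day 4 by 3.30 and 1.83 (adjusted p = 4.7e-04 and 0.045). The part of these cytokines in the members' levels was not tested. Il1b was 1.75 higher in D6-deficient skin at day 2 (adjusted p = 0.0013). The change from day 0 to day 2 was lower in D6-deficient than in WT mice for 4 of the 12, where 1.11% of all tested probe sets were called. These were Il1a (-2.05), Il1f6 (-2.66), Il1f8 (-1.88) and Il20 (-1.70), with adjusted p from 0.0029 to 0.016. The change to day 4 was lower for Il1f6 (-2.75, adjusted p = 0.036) and higher for Il22 (3.00, adjusted p = 0.031), with 0.153% of all called. Such differences include any difference on day 0, which for Il1f6 was 1.92 in the other direction.

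Receptors and transcription factors known to act upstream of the set were read in the same way. Of 21 listed and 20 tested, 0, 2 (Zc3h12a and Grhl3), 3 (these and Il1r1) and 0 were called higher in WT skin at days 1, 2, 4 and 6, against the same shares of all probe sets as above. In D6-deficient skin 0, 0, 2 (Il1r1 and Cebpd) and 0 were called higher, and Il20ra at day 2 and Il20rb at day 4 lower. Grhl3, an epidermal differentiation factor, rose by 2.33 in WT skin at day 2, and Cebpd, a C/EBP factor, by 2.01 in D6-deficient skin at day 4. Of 17 listed receptors and proteases that bind or cleave the members' products, 15 were tested, and 1, 0, 2 and 0 were called higher in WT (Ccr6, Cd33 and Mmp9) and 0, 2, 4 and 0 in D6-deficient skin (Tlr2, Tlr4, Cd33, Mmp9 and Plscr1). Prtn3 was 1.81 higher in D6-deficient than in WT controls (adjusted p = 0.032). Mmp9, the protease that Lcn2 stabilizes, rose at day 4, with changes of 3.62 (WT) and 4.12 (D6-deficient). At day 2 Mmp9 was 1.97 higher in the D6-deficient mice (adjusted p = 7.4e-05). Ccr6, a receptor for beta-defensins, was the 1 gene called in WT skin at day 1, 1.77 higher.

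The genes most like each member over the 30 arrays were then named by Pearson's r. These correlations describe points that share day, genotype and marker levels. S100a8 and S100a9 were most like Sprr2d (r = 0.98) and Csta and Sprr2h (r = 0.96), and Defb3 most like Lce3a and Sprr2f (r = 0.96) and Sprr2i (r = 0.95), genes of the cornified envelope apart from the stefin Csta. Slpi was most like Hbegf and Ier3 (r = 0.97), and Lcn2 most like Ifitm1, Saa1 and Clec4d (r = 0.96). Defb4 was most like Sptlc2 (r = 0.95), with Slc7a11 and Il1b at 0.93. Defb1 was most like Sdr9c7 (r = 0.83) and Defb6 most like Slc1a1 (r = 0.86). Among the members, Slpi and Lcn2 correlated at 0.93, Defb4 and Lcn2 at 0.92 and Defb3 and S100a9 at 0.93, whereas Defb6 with each of the others reached 0.06 to 0.24.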

How the data were processed

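Total RNA of whole back skin from 30 mice was hybridized to 30 Affymetrix mouse whole-genome arrays. The authors background-corrected, quantile-normalized and summarized the probes by RMA, and the deposited values are linear intensities. Their log2 was used without further scaling. RMA compresses fold changes of dim probe sets, and the scanner's range limits bright ones. After 64 control probe sets were removed, 45037 remained, the 9008 with the lowest mean (20%) were left out, and 36029 were tested. Means of the 10 groups were fitted to all arrays with limma 3.58.1 (lmFit and eBayes) in R 4.3.3, and p-values were adjusted by Benjamini-Hochberg within each contrast. Probe sets were called at an adjusted p under 0.05 and more than 3-fold, and single changes past the adjusted p alone are described as rises or falls. With 3 arrays a group an exact permutation test cannot go below 0.1.

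Members and lists were chosen with earlier results of these data known. All 10 members are named with every probe set, the brightest quoted, and other genes come from lists of effectors, inducers, receptors and transcription factors, binding partners and cell type markers, or are the 3 genes most correlated with a member. The scripts were tested on simulated data. Alternatives were median centring, other dim filters, no fold threshold, fewer arrays, a replicate block, the hybridization control set, other eBayes settings and the methods' t-test. Replicate numbers were not stated to pair mice. Figures were drawn with Python 3.11.15 and matplotlib 3.10.9. Promoters come from RefSeq (GRCm38.p6), which was not used for array coordinates.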

Additional observations from a re-analysis of the deposited data

Results flagged for a closer look

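Changes from day 0 that differed between the genotypes by limma's test of that difference are given here. Members are given at an adjusted p under 0.05, and the other effectors only where the difference was also more than 3-fold. Effectors that passed the adjusted p alone are left out, such as Lyz2 at day 2 (0.83, adjusted p = 0.0064). All those given were at day 2. Among the members it was Defb6 (-1.53, D6-deficient change minus WT change in log2, adjusted p = 0.03), the beta-defensin that was lower on the D6-deficient day 2 arrays. Among the other effectors, the neutrophil granule genes Camp (3.20, adjusted p = 0.025), Ngp (4.63, adjusted p = 0.015) and Ltf (3.81, adjusted p = 0.027) rose more in D6-deficient skin. Chi3l1, a chitinase-like protein, rose less in D6-deficient skin (-2.69, adjusted p = 0.03), from a higher day 0 mean of 7.93 against 6.19 in WT skin. Its mean at day 2 was 11.17 in D6-deficient and 12.12 in WT skin (adjusted p = 0.41).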

How the results depend on the processing

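Counts of called members did not move by more than 1.5 times with median centring, no dim filter, a 40% filter, another eBayes setting or the hybridization control set as a factor. With both Defb1 probe sets averaged only Defb1 was fitted again, and its 7 changes past the adjusted p stayed past it. The replicate block changed no count, for example 6 in WT skin at day 2. The numbers did not pair the mice by the data either, since in 0 of 15 pairs of groups every correlation was over 0.1 (range -0.29 to 0.38). Reg3g has no value under the 40% filter. Without a fold threshold the counts were 10 for D6-deficient skin at day 2, 2 at day 6, 1 for the genotypes at day 2, 1 for the difference of changes at day 2 and 3 over all days. Of all tested probe sets, 38.1%, 31.7%, 4.45%, 5.40% and 5.52% passed the adjusted p in these comparisons. Such shares were not counted for the settings that follow. With only the arrays compared, 0 were called for D6-deficient skin at day 6 and 0 for the genotypes at day 0. By the methods' t-test, unadjusted and over 3-fold, 1 was called in D6-deficient skin at day 1, 0 at day 6, 1 between the genotypes at day 0, and 3, 3, 3 and 2 for differences of changes at days 1, 2, 4 and 6. After Benjamini-Hochberg it gave 2 in WT skin at day 1 and 0 at day 6, 1 and 0 in D6-deficient skin at those days, 0 between genotypes at day 0, 2 and 1 for differences of changes at days 2 and 4, and 3 for D6-deficient day 6 against day 4. Within the first set by hybridization controls the counts were 0 and 0 for D6-deficient skin at days 1 and 6, 1 for WT skin at day 6 and 0 between genotypes at day 0. Within the second they were 0 for D6-deficient and 2 for WT skin at day 1, 0 for WT skin at day 6, 0 and 1 between genotypes at days 0 and 4, and 3 for WT day 6 against day 4. The second set holds no D6-deficient day 6 array. The second Defb1 probe set turned from a fall to 0.14 for D6-deficient day 6 against day 4 within the first set. The cause of these moves was not tested beyond the smaller number of arrays.

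Leaving out 1 array gave counts of 4 to 4, 6 to 7, 6 to 7 and 3 to 3 in WT skin at days 1, 2, 4 and 6, and 1 to 4, 6 to 7, 6 to 7 and 0 to 3 in D6-deficient skin. Day 6 against day 4 gave 6 to 6 in WT and 5 to 7 in D6-deficient skin. Between genotypes the counts were 0 to 3 at day 0, 0 to 1 at day 2 and 0 otherwise. For differences of changes they were 0 to 1, 0 to 2, 0 to 1 and 0 at the 4 days. An alternative starting from a table named as normalized was not run, since only a sample sheet was given there. Signal limits Reg3g and Defb4 in control skin, and Defb3 in WT control skin, at the dim end. At the bright end it limits S100a8 and S100a9.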
